A study of Mus musculus with 6 samples.

Results

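The 64 genes described here encode the proteins that carry out and steer pre-mRNA splicing: the SR proteins, the hnRNPs, the SF3A and SF3B complexes, the U2AF subunits, the PRPF proteins and 8 further factors. They were chosen by gene symbol alone, as every gene named Srsf, Hnrnp, Sf3a, Sf3b, U2af or Prpf followed by its member number or letter, together with Pnn, Son, Srrm1, Srrm2, Acin1, Rnps1, Ddx5 and Ddx39b, and pseudogene symbols were left out. They made up 64 of the 26789 genes in the deposited table, of which 26507 had a gene symbol. The group held 11 SR proteins, 20 hnRNPs, 9 SF3 genes, 3 U2AF genes, 13 PRPF genes and the 8 other factors.

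The RNA came from microglia of the rostral nucleus of the solitary tract (NST), the first central relay for taste, in mice at P15. The study's methods state that both sexes were used throughout. They name C57Bl/6 for the terminal field experiments and give no separate strain for the sequenced mice. The control group had 3 libraries, from pups whose dams stayed on standard chow, and the E3–E12 diet group had 3 libraries, from pups whose dams received sodium-restricted chow from E3 to E12 and standard chow afterwards. By the study's methods each library pooled littermates, with cells sorted on beads against CD11b, a surface protein that other myeloid cells also carry, whereas the sample labels name laser microdissection, so the isolation method is uncertain. Each library is therefore treated as 1 litter, and a difference between diets is one of RNA in a pool, in which fewer cells of a type and less RNA per cell cannot be told apart.

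Splicing removes introns in a fixed order of recognition steps. U1 snRNP marks the start of an intron, U2AF reads the pyrimidine tract and the AG at its end, the SF3A and SF3B complexes anchor U2 snRNP on the branch point, and PRPF proteins bring in and rearrange the tri-snRNP that becomes the catalytic machine. SR proteins bind exons and usually favour their inclusion, hnRNPs bind nascent RNA and often favour skipping, and the balance between them sets which exons are used. Many SR and hnRNP genes also limit their own output by splicing in exons that expose their transcripts to decay. The table holds 1 value per gene, so the data speak to the amount of these transcripts and not to which exons were used.

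Control replicate 2 stood apart from the other libraries, and the results are therefore given with and without it. Its normalized counts summed to 17204618, against a range from 9407141 to 14656956 in the other 5 libraries, and it listed 10640 genes at 0, against 3459 to 7135. Markers of microglia made up 1.27% to 3.38% of all normalized counts in the controls and 1.22% to 2.66% in E3–E12 diet mice, above those of endothelial cells (0.0309% to 0.158% and 0.0845% to 0.144%), mural cells and fibroblasts (0.00903% to 0.156% and 0.0517% to 0.179%), astrocytes (0.0107% to 0.0958% and 0.0351% to 0.105%), oligodendrocyte lineage cells (0.0446% to 0.469% and 0.0419% to 0.227%) and neurons (0.00478% to 0.0205% and 0.00619% to 0.0252%). Choroid plexus markers ranged from 0.00334% to 0.160% in the controls and from 0.000518% to 0.430% in E3–E12 diet mice. Border macrophage markers ranged from 0.0514% to 0.101% and from 0.0499% to 0.0671%, neutrophil and erythroid markers were at most 0.0174%, and immediate early genes, which dissociation induces, made up 1.11% to 2.02% and 0.931% to 1.88%. Of these 11 immediate early genes 8 had lower mean log2 levels in E3–E12 diet mice (median -0.33, and 0.21 without control replicate 2), among them Zfp36, without overlap (-1.39), and Atf3 (-2.20, and -1.50 without control replicate 2). Control replicate 2 held the lowest share of endothelial, mural, astrocyte and neuronal markers. All 16 microglial markers passed the filter and all 16 had a lower mean log2 level in E3–E12 diet mice (median log2 difference -0.28, and 0.23 without control replicate 2), and Tyrobp, a microglial adaptor protein, was at 0 in the table for each E3–E12 diet library. All 8 astrocyte markers had a higher mean log2 level (median 0.89, and 0.64 without control replicate 2). The part of these shifts in the results on splicing factors was not tested.

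All 64 genes were abundant enough to test. Each was detected in every library, whereas 19.9% of all genes tested were listed at 0 in at least 1 library. Their mean over the 6 libraries lay above the median of all genes tested, 144 normalized counts, for 59 of the 64. Their spread between litters was smaller than that of a typical gene. The SD of the log2 level within a diet group had a median of 0.702 over the splicing factors and 1.07 over all genes tested, which differ in level, and the highest library exceeded the lowest by a median factor of 3.75 against 5.26. Together they made up 0.953%, 1.27% and 0.868% of all normalized counts in the control libraries (replicates 1, 2 and 3) against 0.865%, 0.973% and 0.818% in those of E3–E12 diet mice. The groups overlapped in this share, because E3–E12 diet replicate 2 lay above 2 of the controls.

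Srrm2 was the most abundant of these transcripts. To compare levels between genes, the mean normalized count was divided by the length of each gene's annotated exons in kilobases (kb). Srrm2, which with Son forms the core of nuclear speckles, had the highest level at 2233 normalized counts per kb (1516 to 3488 over the 6 libraries). Srsf2, the speckle marker SC35, came next at 1197 per kb (466 to 2734), although 25.3% of its exon bases are shared with Mettl23 and Mfsd11 on the opposite strand. The RNA helicase Ddx5 had 1051 per kb (453 to 2470), Son 786 (493 to 1123) and Prpf8 711 (365 to 1949.7). Srrm2 had the highest level per kb in each of the 6 libraries, and the ranges of Srsf2, Ddx5, Son and Prpf8 overlapped, so the order among those was not resolved. At the other end were Srsf12 with 11.5 per kb (2.18 to 36.3), U2af2 with 14.6 (4.42 to 36.2), Prpf38a with 21.9 (13.1 to 29.8) and Sf3b5 with 22.9 (6.22 to 35.7). Their ranges overlapped, so their order was not resolved either. U2af2 encodes the large subunit that contacts the pyrimidine tract.

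**Figure D1:**
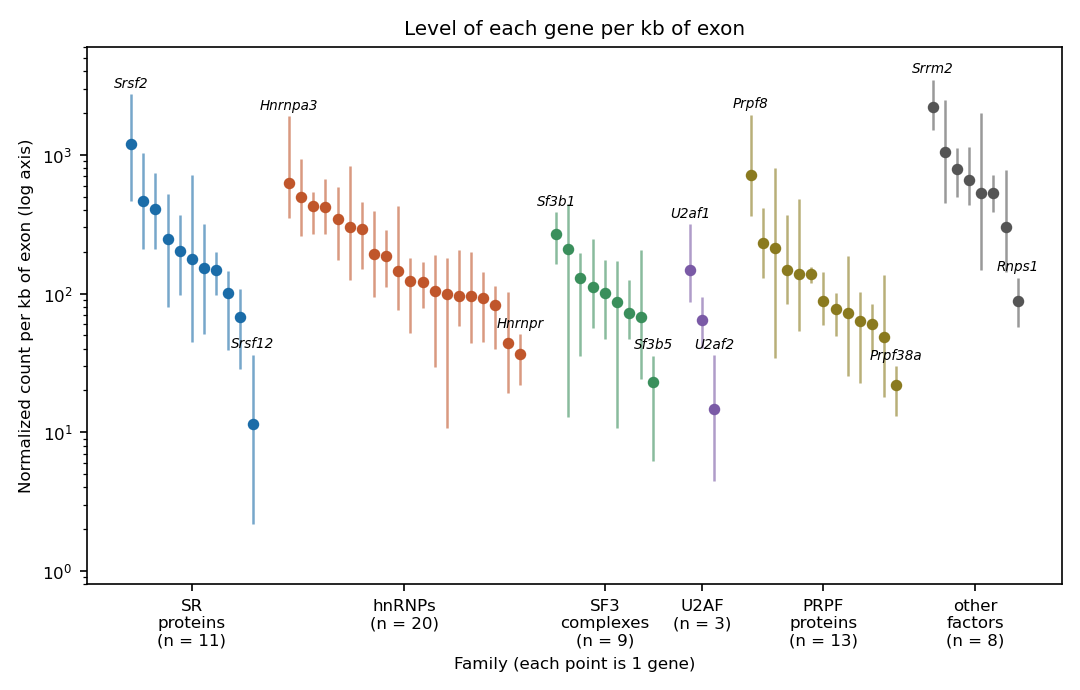
Level of each of the 64 genes in normalized counts per kb of exon (log axis), grouped by family and ordered by level within it. Points are means over the 6 libraries and vertical lines run from the lowest to the highest library, and Srrm2 has the highest mean (2233) and Srsf12 the lowest (11.5).

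Comparing the diets asks whether a maternal low-sodium diet in early gestation left a trace in the splicing machinery of microglia in the offspring. Most splicing factors had lower mean log2 levels in E3–E12 diet mice, but no single one passed the test. Of the 64, 48 were lower and 16 higher (75.0% lower, where 45.6% of all genes tested were lower), with a median log2 fold change of -0.29 against 0.09 over all genes tested. The fold changes ran from -1.65 to 1.35, and 38 of the 64 lay within 0.5 of 0. Below -1 were 8 genes (background 9.57% of all genes tested) and above 1 were 2 genes (background 19.3%).

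None passed limma with Benjamini-Hochberg adjustment at 0.1 (0 of 64, smallest adjusted p = 0.999), as none of the 18007 genes tested did (0.00%). The study lists genes past the same threshold with DESeq2, so its calls and those of limma here differ. With an unadjusted p under 0.05 from limma there were 2, Hnrnpd and Pnn, where 1.49% of all genes had one, and without the mean-variance trend limma gave 0. Without control replicate 2 neither Hnrnpd nor Pnn was under 0.05. Hnrnpul1 was then the only 1 of the 64, where 370 of 18124 genes tested were. The standard error of a log2 fold change had a median of 0.60 over the 64 genes (0.44 to 1.5), so differences of the size seen in most of them were not detectable with 3 libraries per diet. In 5 of the 64 genes the 3 E3–E12 diet libraries lay entirely on one side of the 3 controls (7.81%, background 5.90%). All 5 were lower (background 2.91% in that direction), and none were higher (background 2.99%).

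The lean towards lower levels depended on control replicate 2. Without it, 39 genes were lower and 25 higher (60.9% lower, background 50.4%), and the median log2 fold change was -0.10. Control replicate 2 held the highest value of the 6 libraries for 39 of the 64 genes (background 26.3% of all genes tested), and its median level was 1.76 times the median of the other 5 libraries. E3–E12 diet replicate 1 was at the opposite extreme, with the lowest value for 30 genes (background 16.5% of all genes tested). Its median level was 0.662 times that of the other libraries, whereas its median log2 difference over all genes tested was 0.10. Without E3–E12 diet replicate 1, 36 of the 64 genes were lower (background 47.0% of all genes tested) and the median was -0.14. Scaling all libraries to equal totals gave 40 lower and 24 higher, where 39.6% of all genes tested were lower. This scaling moved the median of all genes tested from 0.09 to 0.20 and that of the splicing factors to -0.17.

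**Figure D2:**
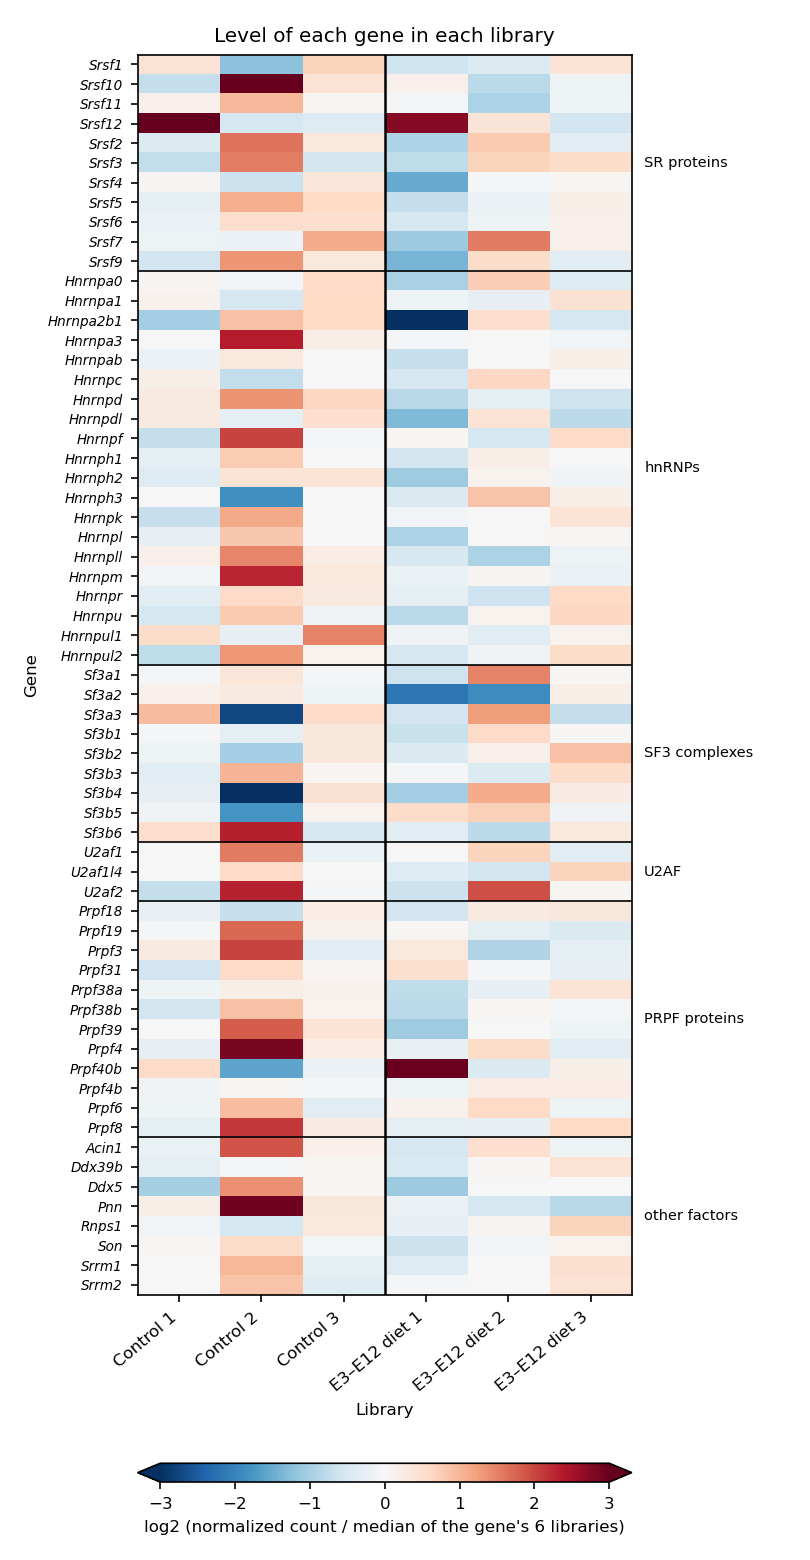
Level of the splicing factor genes (rows, by family, 1 of the 64 not shown) in each of the 6 libraries (columns), as log2 of the normalized count over the median of that gene's 6 libraries, with red above and blue below it. Control 2 is the highest library for 39 genes (background 26.3% of all genes tested) and E3–E12 diet 1 the lowest for 30 (background 16.5%).

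Hnrnpd and Pnn were the genes with the smallest p. Hnrnpd encodes AUF1, which binds AU-rich elements and is best known for directing the decay of cytokine mRNAs. Hnrnpd (ENSMUSG00000000568; GRCm38 chr5:99955935-99978938, minus strand) had 691, 1460.0 and 883 normalized counts in control mice against 324, 475 and 375 in E3–E12 diet mice, here and throughout in the order of replicates 1, 2 and 3. Every E3–E12 diet library lay below every control, and the lowest control stood well clear of the highest diet library. The means were 1012 ± 400.1 and 391 ± 76.5 (SD, n = 3 libraries each). The log2 fold change was -1.31 (standard error 0.51, limma, adjusted p = 0.999; exact permutation p = 0.1, the smallest that 3 against 3 libraries allow). Without control replicate 2 it was -1.01, and it ranged from -1.55 to -1.01 with each library left out in turn.

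Pnn encodes pinin, a speckle protein that associates with the exon junction complex through Rnps1. Pnn (ENSMUSG00000020994; GRCm38 chr12:59066884-59073998, plus strand) had 1711, 11513 and 1914 normalized counts in control mice against 1349, 1061 and 853 in E3–E12 diet mice. The groups did not overlap, but control replicate 2 was 8.53 times the median of the other libraries and the remaining gap between 1711 and 1349 was narrow. The log2 fold change came to -1.65 (standard error 0.69, limma, adjusted p = 0.999; exact permutation p = 0.1), and -0.76 without control replicate 2. Pnn is also in a gene list that the study drew from these same libraries, so its direction here is not independent of that list. The study lists it as lower in E3–E12 diet mice, from DESeq2 at an adjusted p under 0.1, a call that limma did not give here.

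Hnrnpll, Prpf39 and Srsf11 were the other genes without overlap. Hnrnpll, known for the exon switch in the CD45 transcript of lymphocytes, had 478, 1189.9 and 501 normalized counts in control mice against 311, 225 and 390.5 in E3–E12 diet mice (ENSMUSG00000024095; chr17:80029487-80062334, minus strand). All 3 controls exceeded all 3 diet libraries, with a log2 fold change of -1.12 (standard error 0.56), and -0.70 without control replicate 2. Prpf39, a U1 snRNP-associated protein that takes part in recognising the start of introns, had 641, 2219 and 847 normalized counts in control mice against 304, 624 and 569 in E3–E12 diet mice (ENSMUSG00000035597; chr12:65036333-65063386, plus strand). The closest libraries, 641 and 624, nearly met, and the log2 fold change of -1.16 (standard error 0.59) became -0.63 without control replicate 2. Of its exon bases 5.0% are shared with Fkbp3 on the opposite strand.

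Srsf11, an SR-related protein that contacts U2AF, had 1764, 3091 and 1636 normalized counts in control mice against 1523, 824 and 1435 in E3–E12 diet mice (ENSMUSG00000055436; chr3:158010473-158036639, minus strand). The gap between the groups, from 1636 down to 1523, was small beside the spread within either group. Its log2 fold change was -0.77 (standard error 0.49), and -0.48 without control replicate 2. For Hnrnpll, Prpf39 and Srsf11 alike the adjusted p from limma was 0.999, and the exact permutation p was 0.1.

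**Figure D3:**
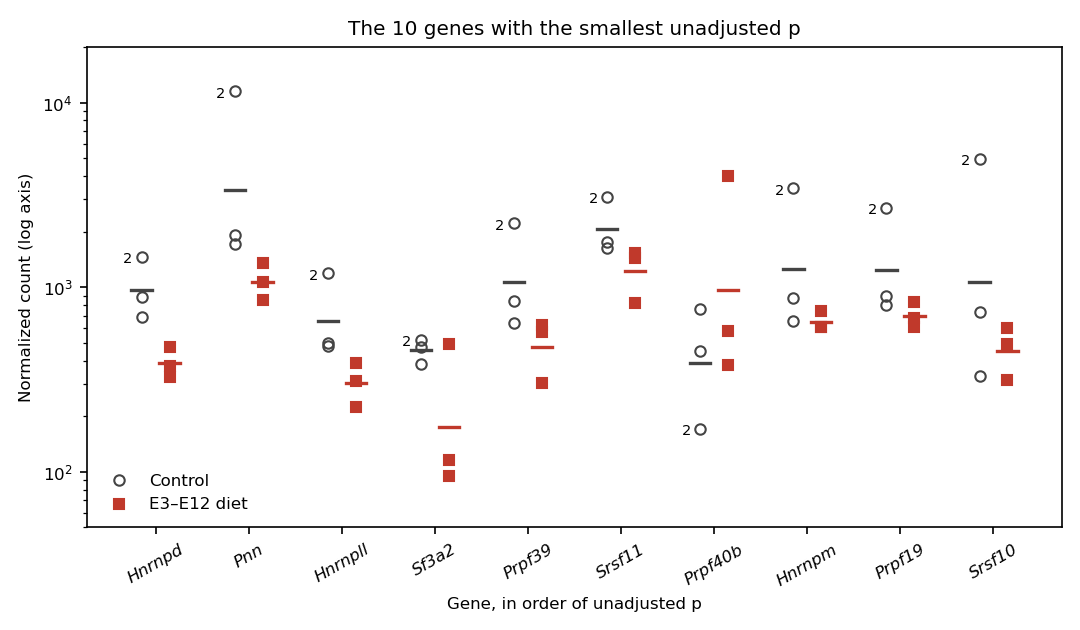
Normalized counts (log axis) of the 10 genes with the smallest unadjusted p, in order of p, with 3 control libraries as open circles, 3 E3–E12 diet libraries as filled squares, and bars at the mean on the log2 scale. The digit 2 marks control replicate 2, and for Hnrnpd its value of 1460.0 is the highest of 6 libraries that separate by diet.

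The start regions of the genes without overlap are shown to give the sequence from which they are transcribed. These genes were picked by their values in these libraries, and a shared control of them was not tested. RefSeq windows on GRCm38.p6 run from 250 bases before the annotated start to 50 after it, 5′ to 3′ on the gene's strand, and 56 of the 64 genes had at least 1 window (79 windows). Hnrnpll was not among them. Capitals mark every match, on either strand, to the letters GGGCGG of the GC box, to CCAAT for the promoter element of that name, to TATAAA for the element read by TBP, to the ETS motif CCGGAAG and to the motif GCGCATGC read by NRF1. The windows are chr5:99978889-99979188 for Hnrnpd, chr12:59066669-59066968 for Pnn, chr12:65036084-65036383 for Prpf39 and chr3:158036557-158036856 for Srsf11.
Hnrnpd: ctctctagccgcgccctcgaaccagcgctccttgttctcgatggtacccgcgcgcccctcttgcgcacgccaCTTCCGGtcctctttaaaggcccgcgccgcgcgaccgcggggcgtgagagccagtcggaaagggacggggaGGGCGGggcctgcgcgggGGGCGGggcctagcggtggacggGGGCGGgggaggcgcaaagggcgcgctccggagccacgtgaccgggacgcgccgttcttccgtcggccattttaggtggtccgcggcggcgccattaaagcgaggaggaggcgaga
Pnn: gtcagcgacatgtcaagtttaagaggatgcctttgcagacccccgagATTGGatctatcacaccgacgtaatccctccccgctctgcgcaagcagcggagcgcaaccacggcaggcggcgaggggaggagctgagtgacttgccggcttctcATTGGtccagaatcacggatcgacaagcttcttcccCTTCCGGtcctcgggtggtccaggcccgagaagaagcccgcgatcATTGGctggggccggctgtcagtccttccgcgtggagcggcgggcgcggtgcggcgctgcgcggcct
Prpf39: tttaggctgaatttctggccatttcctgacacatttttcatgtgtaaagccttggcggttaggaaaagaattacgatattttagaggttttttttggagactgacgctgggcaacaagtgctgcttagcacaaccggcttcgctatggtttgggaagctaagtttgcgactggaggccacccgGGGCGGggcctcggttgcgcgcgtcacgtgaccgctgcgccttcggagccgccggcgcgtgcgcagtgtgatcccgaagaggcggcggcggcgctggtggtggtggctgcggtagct
Srsf11: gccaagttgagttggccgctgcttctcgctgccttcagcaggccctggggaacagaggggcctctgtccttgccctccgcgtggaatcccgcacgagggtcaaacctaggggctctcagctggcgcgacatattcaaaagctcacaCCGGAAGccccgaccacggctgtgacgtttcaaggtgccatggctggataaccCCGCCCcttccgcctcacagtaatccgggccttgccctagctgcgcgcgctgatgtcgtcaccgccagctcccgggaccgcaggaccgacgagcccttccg
The windows held 45 CG dinucleotides in Hnrnpd, 30 in Pnn, 27 in Prpf39 and 25 in Srsf11, against a median of 27 over the windows of all splicing factors here and 7 over all 32851 RefSeq windows. Hnrnpd and Prpf39 carried GC boxes on the plus strand of the window, Srsf11 carried 1 on the minus strand, and Pnn carried 3 CCAAT boxes, all on the minus strand. The ETS motif was present in Hnrnpd, Pnn and Srsf11 but not in Prpf39, and in 32.9% of the windows of splicing factors against 8.86% of all windows. A GC box was present in 60.8% against 35.7%, a CCAAT box in 48.1% against 37.4%, a TATA box in 7.59% against 13.6% and the NRF1 motif in 6.33% against 2.71%. These are matches of letters that describe the windows, and binding at them was not measured.

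Among the SR proteins, which bind exonic enhancers through their RNA recognition motifs and recruit U1 snRNP and U2AF, 10 of 11 had lower mean log2 levels in E3–E12 diet mice. The median log2 fold change was -0.45, and -0.32 without control replicate 2, when 10 were again lower. Without E3–E12 diet replicate 1 the split was 7 lower and 4 higher. The mean log2 level over the family was 9.470 ± 0.314 in the controls and 8.999 ± 0.294 in E3–E12 diet mice (SD, n = 3 libraries each), and the groups overlapped because E3–E12 diet replicate 2 lay above control replicate 1. No SR protein had an unadjusted p under 0.05 from limma.

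Srsf10, a splicing repressor when dephosphorylated after heat shock or in mitosis, had 331, 4977 and 734 normalized counts in control mice against 604, 314 and 493 in E3–E12 diet mice. Control replicate 2 was 10.1 times the median of the other libraries, and the groups otherwise overlapped. Its log2 fold change was -1.23 (standard error 0.85), and -0.12 without control replicate 2. Srsf3, the smallest SR protein and an adaptor for mRNA export, had 1696, 8173 and 1928 normalized counts in control mice against 1661, 4469 and 4159.6 in E3–E12 diet mice. E3–E12 diet replicates 2 and 3 lay above control replicates 1 and 3 and below control replicate 2, so its log2 fold change of 0.07 (standard error 0.67) rested on control replicate 2 and was 0.79 without it. Srsf3 and Srsf10 share 10.04% and 10.3% of their 50-base transcript windows with other annotated genes, which makes their counts less certain.

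Of the 20 hnRNPs, abundant nuclear proteins that coat nascent transcripts, 18 had lower and 2 had higher mean log2 levels in E3–E12 diet mice. The median was -0.39, and -0.15 without control replicate 2, when 14 were lower. Without E3–E12 diet replicate 1, 13 were lower and 7 higher. The family averaged 9.93 ± 0.41 on the log2 scale in the controls and 9.49 ± 0.40 in E3–E12 diet mice, and here too E3–E12 diet replicates 2 and 3 lay above control replicate 1. Over all genes tested the same average was 6.62 ± 0.43 and 6.80 ± 0.25, higher in E3–E12 diet mice.

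Hnrnpa3, the hnRNP gene with the highest mean normalized count, had 1992, 10276 and 2306 normalized counts in control mice against 1919, 2022 and 1904 in E3–E12 diet mice. The E3–E12 diet libraries were nearly identical to each other, and control replicate 2 alone stood away from them. The log2 fold change was -0.89 (standard error 0.63), and -0.14 without control replicate 2, while 27.1% of its transcript windows occur in other annotated genes. Hnrnpm, a regulator of alternative exons, followed the same pattern with 656, 3432 and 869.6 normalized counts in control mice against 608, 746 and 611 in E3–E12 diet mice. Its log2 fold change of -0.94 (standard error 0.63) became -0.21 without control replicate 2, and 14.7% of its exon bases are shared with March2 on the same strand.

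A pair of hnRNPs outside the rule for named genes is given because of how they behaved under other settings, and they were chosen after their values were seen. Hnrnpul1 had 937, 536 and 1776 normalized counts in control mice against 593, 502 and 682 in E3–E12 diet mice, so the groups overlapped through control replicate 2, and its log2 fold change was -0.71, and -1.13 without that library. Hnrnpa2b1, which binds m6A-marked transcripts and sorts microRNAs into vesicles, had 319, 1187 and 984 normalized counts in control mice against 70.5, 926 and 452 in E3–E12 diet mice. E3–E12 diet replicate 1 was far below the other 5 libraries, and the groups overlapped (log2 fold change -1.21, standard error 0.89).

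The SF3 genes were evenly split. Of the 9 subunits, 4 were lower and 5 higher, with a median of 0.20. That median was -0.01 without control replicate 2, 0.66 without E3–E12 diet replicate 1 and -0.26 without E3–E12 diet replicate 2, so its direction depended on single libraries. Control replicate 2 was the lowest library for 4 of the 9 genes and the highest for 3, whereas it was the highest for 7 of 11 SR proteins and 13 of 20 hnRNPs. The difference between families was not tested, because the genes share their libraries.

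Sf3b1, the subunit that clamps the branch point helix, had 2903, 2435 and 3744 normalized counts in control mice against 1861, 4397 and 3041 in E3–E12 diet mice. The groups were interleaved, with a log2 fold change of -0.03 (standard error 0.50). Sf3a2, which holds the U2 snRNP core together with Sf3a1 and Sf3a3, had 475, 519 and 386 in control mice against 94.9, 115 and 491 in E3–E12 diet mice. E3–E12 diet replicates 1 and 2 were below every control and replicate 3 was within their range, giving a log2 fold change of -1.37 (standard error 0.69, exact permutation p = 0.3) and -1.28 without control replicate 2. Of its exon bases 16.1% are shared with Plekhj1 on the opposite strand. Sf3b4 had the highest fold change of the 64 genes, 1.35 (standard error 1.04), and it came from control replicate 2, where its value was 27.7 against 377 and 613 in the other controls and 218, 957 and 525 in E3–E12 diet mice. With that library left out the log2 fold change was -0.01. Other annotated genes share 45.3% of its transcript windows.

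The U2AF genes gave no clear difference. U2af1, the small subunit that reads the AG at the intron's end, had 279, 818 and 244 normalized counts in control mice against 281, 443 and 225 in E3–E12 diet mice. Control replicate 2 was the highest library and E3–E12 diet replicate 2 the next, the groups overlapped, and the log2 fold change was -0.33 (standard error 0.63) with it and 0.22 without it. All 3 U2AF genes were lower with all libraries and 1 of 3 without control replicate 2. U2af1 shares 21.7% of its transcript windows with other annotated genes.

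The 13 PRPF genes, which build the U4/U6.U5 tri-snRNP and the complexes around it, split into 7 lower and 6 higher, with a median of -0.25, and 0.01 without control replicate 2. Prpf8, the scaffold of U5 snRNP that surrounds the catalytic centre, had 2740.5, 14547 and 3956 normalized counts in control mice against 2719.6, 2818 and 5030.0 in E3–E12 diet mice. Control replicate 2 was again the highest, the other 5 libraries were mixed, and the log2 fold change of -0.68 (standard error 0.65) became 0.04 without it. Prpf19, the ubiquitin ligase at the core of the Prp19-associated complex, had 797, 2691 and 893 in control mice against 834, 679 and 608 in E3–E12 diet mice. The groups overlapped through E3–E12 diet replicate 1, with a log2 fold change of -0.82 (standard error 0.56) and -0.27 without control replicate 2.

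Prpf40b was the PRPF gene with the widest spread. It encodes a WW-domain protein that bridges U1 snRNP to the branch point factor, and had 765, 171 and 453 normalized counts in control mice against 3998, 381 and 582 in E3–E12 diet mice. E3–E12 diet replicate 1 was the highest library and control replicate 2 the lowest, and E3–E12 diet replicates 2 and 3 lay within the range of the controls. Its log2 fold change was 1.30 (standard error 0.86, exact permutation p = 0.5), 0.27 without E3–E12 diet replicate 1 and 0.71 without control replicate 2. Prpf4b, a kinase of the tri-snRNP, was the steadiest of the 64 genes, with a highest library 1.30 times the lowest.

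**Figure D4:**
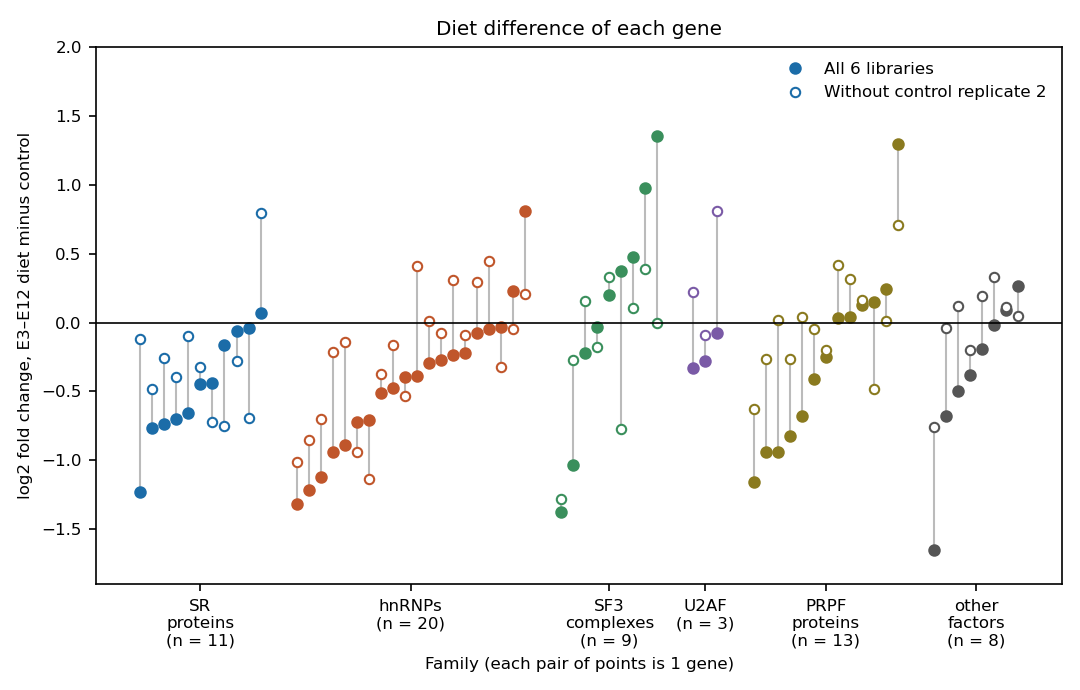
Log2 fold change of each gene, E3–E12 diet minus control on the log2(normalized count + 1) scale, by family, with filled points for all 6 libraries and open points without control replicate 2, joined by a line. With all libraries 48 of the 64 filled points lie below 0, and without control replicate 2 39 of the open points do.

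Apart from Pnn, the other factors had overlapping groups. The speckle scaffold Son had 11838, 16746 and 11105 normalized counts in control mice against 7354, 10894 and 12385 in E3–E12 diet mice. Srrm2 had 24541, 44789 and 19474 in control mice against 24491, 25251 and 33485 in E3–E12 diet mice, and Srrm1, a coactivator that bridges SR proteins bound to exons, had 4099.8, 8324 and 3419.6 and 3160.5, 4226 and 5839. In all 3 genes control replicate 2 was the highest library and the remaining libraries of the diets overlapped. The log2 fold changes were -0.38 for Son (standard error 0.53), -0.02 for Srrm2 (standard error 0.63) and -0.19 for Srrm1 (standard error 0.53). Without control replicate 2 they were -0.20 for Son, 0.33 for Srrm2 and 0.19 for Srrm1, and Son was at -0.16 without E3–E12 diet replicate 1.

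Acin1 and Rnps1, which form the ASAP complex with Sap18 beside the exon junction complex, had overlapping groups. Acin1 had 1890.5, 8132 and 2446 normalized counts in control mice against 1513, 3097 and 1952 in E3–E12 diet mice, with a log2 fold change of -0.68 (standard error 0.61), and -0.04 without control replicate 2. Rnps1 had 399, 295 and 530.1 in control mice against 359, 449 and 668 in E3–E12 diet mice, with control replicate 2 the lowest library and a log2 fold change of 0.26 (standard error 0.53), and 0.05 without it.

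The RNA helicases were also mixed. Ddx5, which unwinds RNA around U1 snRNP and serves as a transcription coactivator, had 2753, 14266 and 5728 normalized counts in control mice against 2615, 5511 and 5559 in E3–E12 diet mice. Its replicates spread widely in the controls, and the log2 fold change was -0.50 (standard error 0.65), and 0.12 without control replicate 2. Ddx39b, the helicase that loads U2 snRNP and the export machinery, had 1671, 1962 and 2098 in control mice against 1475, 2083 and 2721 in E3–E12 diet mice. Control replicate 2 lay among the other libraries, with a log2 fold change of 0.09 (standard error 0.46), and 0.12 without that library.

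Control replicate 2 set the size of many of these differences and did not shift every gene alike. It exceeded the median of the other 5 libraries by more than 2 times in 28 genes and by more than 4 times in 12, namely Prpf3, Prpf4, Prpf8, Sf3b6, Srsf3, Srsf10, U2af2, Hnrnpa3, Hnrnpf, Hnrnpm, Acin1 and Pnn. In 8 genes it was below 0.5 times that median, among them Sf3a3, Sf3b4, Sf3b5 and Hnrnph3. The shares of all genes tested beyond these cutoffs were not computed. Control replicate 2 was the lowest library for 12 of the 64 genes and for 38.2% of all genes tested. Over all genes tested its median log2 difference from the other libraries was -0.27, opposite in sign to the 0.82 of the splicing factors. The SD of the log2 level was larger among the controls than among the E3–E12 diet libraries in 41 of the 64 genes, and in 10745 of the 18007 genes tested.

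Genes that act beside these factors were mixed. Of 26 tested genes for the protein core of the snRNPs, 10 were lower and 16 higher, with a median of 0.33 (0.21 without control replicate 2). The groups did not overlap in 1 of the 26 (3.85%, against 5.90% of all genes tested). This was Lsm4, a subunit of the ring around U6 snRNA, which was higher, at 2.24, 0 and 6.84 normalized counts in control mice against 19.5, 31.0 and 37.2 in E3–E12 diet mice, all low values. Of 22 genes of the catalytic steps and the Prp19-associated complex, 10 were lower and 12 higher (median 0.05). Ddx46, a helicase that prepares U2 snRNP for the branch point, had the only unadjusted p under 0.05 from limma in that list (1 of 22, where 1.49% of all genes tested had one), with an adjusted p of 0.999. It was also the only 1 of the 22 without overlap (4.55%, against 5.90% of all genes tested). Ddx46 had 830.4, 2099 and 797 normalized counts in control mice against 336, 534 and 503 in E3–E12 diet mice, without overlap (log2 fold change -1.31, standard error 0.54, and -0.86 without control replicate 2). Of 18 genes of the exon junction complex and mRNA export, 9 were lower and 9 higher (median 0.02), with 2 lower without overlap (11.1%, against 5.90% of all genes tested). These were the export cofactor Nxt1, at 51.4, 9.78 and 30.6 normalized counts in control mice against 2.26, 2.25 and 4.73, and the THO subunit Thoc7, at 159, 133 and 124 against 28.2, 67.5 and 90.7. The values of Nxt1 were all low, and its log2 fold change was -2.73 (standard error 1.46). That of Thoc7 was -1.29 (standard error 0.80).

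The kinases that phosphorylate SR proteins and the remaining splicing regulators leaned lower. Of 9 kinase genes, 7 were lower and 2 higher (median -0.38). Without control replicate 2, 6 were lower and 3 higher (median -0.28), and with equal totals 5 were lower and 4 higher. The groups did not overlap in 1 of the 9 (11.1%, against 5.90% of all genes tested). Srpk2, which phosphorylates SR proteins in the cytoplasm and allows their entry into the nucleus, had 493, 505 and 334 normalized counts in control mice against 238, 165 and 209 in E3–E12 diet mice. The groups did not overlap, control replicate 2 was close to control replicate 1, and the log2 fold change was -1.11 (standard error 0.54), and -1.002 without control replicate 2. Its adjusted p from limma was 0.999.

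Of 45 further splicing regulators, 29 were lower and 16 higher, with a median of -0.25, and -0.32 without control replicate 2. The lean was smaller with equal totals, at 25 lower and 20 higher (median -0.13). Without E3–E12 diet replicate 1 the split was 26 lower and 19 higher (median -0.12). In 7 of these the groups did not overlap (15.6%, where 5.90% of all genes tested did not), all lower in E3–E12 diet mice: Ptbp2, Syncrip, Rbm5, Rbm25, Rbm39, Luc7l2 and Ewsr1. Without control replicate 2 their log2 fold changes were -0.93 for Ptbp2, -0.48 for Syncrip, -0.55 for Rbm5, -0.12 for Rbm25, -0.53 for Rbm39, -0.44 for Luc7l2 and -0.70 for Ewsr1. Rbm39, a U2AF-related protein, had 3027, 2987 and 2949 normalized counts in the controls, which were nearly equal, and 1419, 2336 and 2663 in E3–E12 diet mice (log2 fold change -0.53, standard error 0.46). Rbm5, which regulates exons of apoptosis genes, had 3857, 6558 and 4110.2 in control mice against 2631, 3039.6 and 2536 in E3–E12 diet mice (log2 fold change -0.79, standard error 0.46). Sf1, the branch point binding protein that Prpf40b contacts, had an unadjusted p of 0.0440 from limma (adjusted p = 0.999), with overlapping groups and a log2 fold change of -1.45, and -0.85 without control replicate 2. Malat1, a nuclear RNA retained in speckles, had 105332, 103051 and 129455 normalized counts in control mice against 64402, 94426 and 71691 in E3–E12 diet mice, without overlap (log2 fold change -0.56, standard error 0.79). It was the only 1 of 3 nuclear RNAs examined without overlap. Together Malat1, Neat1 and Meg3 made up 1.73%, 0.819% and 1.17% of all normalized counts in control mice against 1.06%, 1.04% and 0.623% in E3–E12 diet mice, with overlap. The part of nuclear RNA in the lower levels of splicing factors was not tested.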

How the data were processed

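Microglial RNA from the rostral NST of P15 mice was sequenced in 3 control and 3 E3–E12 diet libraries. The authors deposited 1 table of normalized counts per gene by Ensembl identifier, a depth-scaled signal and not raw counts. FastQC, STAR, featureCounts, DESeq2 and GRCm38 are named in the submitters' processing notes, without versions. The table's name mentions surrogate variables, and whether values were adjusted for them is not stated. Low values clustered near a step that differed between libraries but were not whole multiples of it, so raw counts were not recovered and no count test was run. The lowest splicing factor of a library stood at 3.66 (control replicate 2) to 23.6 such steps, and the depth is otherwise unknown. Genes were matched to symbols, positions and exon lengths from GENCODE M21 (GRCm38), and strand was not stated for counting, so shared exon bases cannot be assigned.

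The 18007 genes that averaged 10 or more normalized counts were compared on log2(normalized count + 1) with limma 3.58.1 in R 4.3.3, with a mean-variance trend, two-sided, Benjamini-Hochberg over all of them, threshold 0.1. A fold change on this scale understates changes of low genes. Single genes also had exact two-sided permutation tests over the 20 splits of 3 against 3 libraries, which cannot go below 0.1, so this test alone could not pass 0.05. P-values measure the spread between these libraries. Groups were taken from the sample labels. The members, the companion lists, the marker lists and the trend were chosen with earlier results of these data known. Genes named with full values were those without overlap between groups, the 10 smallest p, the most abundant of each family by mean normalized count, the 8 other factors and members of the study's lists. Companion lists were given by counts, with genes of p under 0.05 or without overlap. The libraries carried the same replicate numbers in both groups. Same-numbered libraries correlated at 0.26, 0.0348 and 0.142 in their deviations from the group means, so the numbers were not taken as pairs. Scripts were tested on simulated data. The values of 1 gene of the group are counted in the summaries but not reported here by name. Alternatives changed the filter, pseudocount, scaling, weights, block, trend and libraries, 1 at a time.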

Additional observations from a re-analysis of the deposited data

How the results depend on the processing

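In every alternative run, 0 of the splicing factors passed the adjusted threshold of 0.1 with limma. The number with an unadjusted p under 0.05 was 2, and became 4 with library weights, 5 with the replicate number as a block, 0 without the mean-variance trend (an alternative chosen after seeing the data) and 0 to 5 with 1 library left out (5 without control replicate 1, 0 without E3–E12 diet replicate 1 and 1 without each of the others). The genes changed with the library: Hnrnpul1 without control replicate 2, Pnn without control replicate 3, and Hnrnpd and Sf3a2 without E3–E12 diet replicates 2 and 3. The block fit changed no call, moved the count over all genes from 268 to 478, and 5 of 6 libraries correlated best with their own number, which is a hint from the data and not the design. Over all genes tested, library weights gave 1396 genes with an unadjusted p under 0.05 and 4 past the adjusted threshold, and leaving out control replicates 1 and 3 gave 970 and 487. Leaving out E3–E12 diet replicate 2 or 3 gave 1 adjusted call each, in no splicing factor. Genes without overlap numbered 5, and 7 to 15 with 1 library left out, where groups of 2 against 3 overlap less often by construction (15 without control replicate 1, 7 without control replicate 3, 10 without E3–E12 diet replicate 3 and 9 without each of the others). In the same settings 12.5% to 17.8% of all genes tested did not overlap. The median log2 fold change was -0.29, and -0.52 to -0.10 with 1 library left out (-0.10 without control replicate 2, -0.14 without E3–E12 diet replicate 1, and -0.51, -0.45 and -0.52 without control replicate 1 and E3–E12 diet replicates 2 and 3).

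Of 352 values for the 22 named genes, 330 kept their direction and side of the threshold and 22 changed sign, 15 of them when a library was left out. Rescaling to equal totals gave 0.091 for Sf3b1 and 0.10 for Srrm2, and quantile normalization 0.10 and 0.030. Library weights gave 0.33 for Srrm1, 0.43 for Srrm2 and 0.28 for U2af1. With 1 library left out the log2 fold change ran from -0.33 to 0.30 for Sf3b1, -0.45 to 0.19 for Srrm1, -0.27 to 0.33 for Srrm2, -0.65 to 0.22 for U2af1, -0.12 to 0.32 for Ddx39b, -1.07 to 0.12 for Ddx5, -1.17 to 0.037 for Prpf8 and -0.34 to 0.79 for Srsf3. The other 14 named genes did not change sign. The cause of these changes was not tested. Over the whole group, 27 genes were lower and 7 higher in every setting, and the share of all genes tested was not computed. Changing the filter, the block or the trend left the log2 fold changes as they were. Agreement across settings was therefore partly fixed in advance. The precision is limited by 3 litters per group and by unknown depth.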
